A study of Homo sapiens with 2 samples.

Results

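The genes described here encode the proteins of the cytosolic ribosome, in its large and its small subunit, in BE(2)C, a human neuroblastoma cell line. Members are the rows of the deposited value table whose platform gene symbol is RPL or RPS followed by digits, with at most 1 suffix of A, L, X or L1. RPLP0, RPLP1, RPLP2 and RPSA belong to the rule too, and kinases of RPS6, pseudogenes and hyphenated symbols do not. This gave 57 probe sets for 50 genes, out of 15835 named probe sets for 14812 genes. There were 32 large subunit and 18 small subunit genes, and 7 of the 50 were paralogs with an L or L1 suffix. RefSeq lists 84 protein-coding genes that the same rule takes. The other 34, among them RPL3, RPL4, RPL5, RPS2, RPS4X, RPSA and the stalk proteins RPLP0, RPLP1 and RPLP2, had no named row and were not analysed here.

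The study compared cells given siRNA against MYCN, the transcription factor gene that neuroblastomas often amplify, with cells given a non-targeting control siRNA. Both cultures were the same cell line, transfected with Lipofectamine and harvested after 36 hours, and each was read on 1 Affymetrix Human Gene 2.0 ST array. The arms carried siRNAs of different suppliers, so an effect of the siRNA reagent and an effect of MYCN loss cannot be told apart, and the level of MYCN was not analysed here. Values are log2 units after RMA by the authors, and differences below are taken as MYCN siRNA minus control. As neither group was replicated, no test was run, and the precision is limited by the number of arrays.

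Eukaryotic ribosomes hold 1 copy of most of these proteins, and cells make the proteins in roughly matched amounts. Their messengers usually begin with a C followed by a run of pyrimidines, the 5′ terminal oligopyrimidine (5′ TOP) start, through which mTOR and the RNA-binding protein LARP1 control their translation. MYC family proteins are known to promote ribosome production through ribosomal RNA synthesis, assembly factors and ribosomal protein genes, and loss of single ribosomal proteins lets free RPL5 and RPL11 bind MDM2, the ligase that degrades p53.

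A gene was counted as measured when it was at or above the median of all 46255 probe sets in at least 1 array; these medians were 4.60 in the control and 4.55 in the MYCN siRNA array. This kept 10592 genes in all and 49 of the 50 members. RPL10L, a testis-expressed copy of RPL10, was left out, at 4.39 in the control and 3.94 in the MYCN siRNA array. RPS27L was kept through its MYCN siRNA value alone. A yardstick for single values came from genes with several probe sets, whose differences gave an SD of 0.31 per probe set over 380 genes. Probe sets of a gene share their RNA and array, so this leaves out the spread between cultures and labellings. Of 12 markers of noradrenergic neuroblastoma, 10 had a row and all 10 were measured, from TH at 6.47 to STMN2 at 11.7 in the control array. In the MYCN siRNA array 8 of these 10 were higher, with a median difference of 0.10. Of all 10592 measured genes, 5388 were higher, with a median of 0.01. DBH, which converts dopamine to noradrenaline, was at 9.32 and 10.8 (1.45) and DDC, an enzyme of dopamine synthesis, at 10.1 and 10.5 (0.38), while ISL1 went from 8.19 to 7.76 (−0.43) and HAND2 from 10.6 to 10.5 (−0.09). Of markers of other cells, CD68 went from 7.27 to 9.0, S100B from 5.90 to 6.92 and LUM from 6.54 to 5.37. SOX10 went from 6.19 to 5.91 and CSF1R from 4.64 to 4.26, while CD14 and DCN were not measured. The part of these in the values below was not tested.

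Ribosomal protein messengers were lower in the MYCN siRNA array by a small and similar amount. Of the 49 measured members, 47 (95.9%) were lower, where 48.0% of all measured genes were lower. Their median difference was −0.29, a 1.22-fold lower value, and the median of all measured genes was 0.01. In bulk RNA, fewer cells with a messenger and less of it per cell cannot be told apart. The 43 members that are not paralogs were lower without exception, from −0.98 to −0.07. These 43 differences had an SD of 0.19, below the 0.31 between probe sets of 1 gene and below the 0.43 of all measured genes. As these members vary less in all than 0.31, that yardstick overstates the probe set spread of most of them and is coarse here. Between their own probe sets, RPL19, RPS18 and RPL39 spanned 0.07, 0.09 and 0.18, and RPL41 0.64. Gaps between most neighbours in the list are small, and their order was not read. At least 1.5-fold lower were 4 members (8.16%) against 5.79% of all measured genes, and 1 member was at least 2-fold lower against 1.16%. The shares past these folds were near the background. After quantile normalization 8 members (16.3%) passed 1.5-fold, against 5.83% of all genes.

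**Figure D1:**
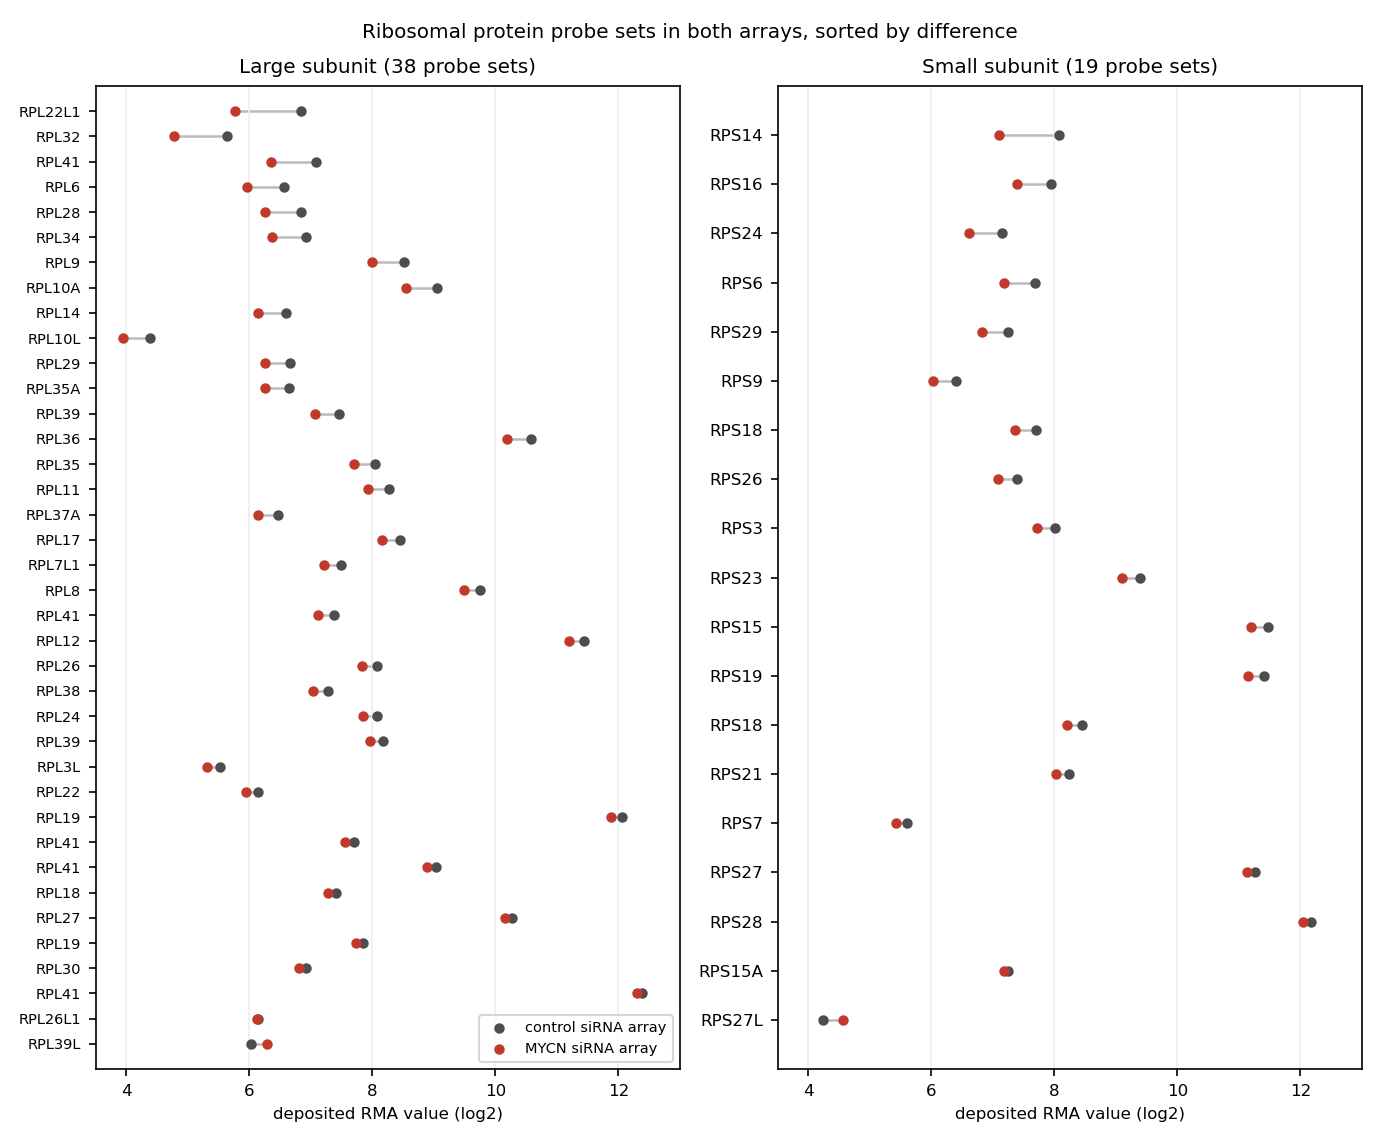
Deposited RMA values (log2, x axis) of the 38 large subunit and 19 small subunit probe sets in the control siRNA array (grey points) and the MYCN siRNA array (red points), 1 line per probe set, sorted by difference. Red points lie left of grey ones for 55 of the 57 probe sets, RPL39L and RPS27L being the exceptions.

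The subunits did not separate. The 31 measured large subunit genes had a median of −0.28, with 30 lower, and the 18 small subunit genes a median of −0.29, with 17 lower. The gap between these medians was −0.01 (small minus large). Without the paralogs the medians were −0.31 over 26 large and −0.29 over 17 small subunit genes, and the gap was 0.02. The middle parts of the distributions overlapped, running from −0.44 to −0.24 in the large and from −0.42 to −0.21 in the small subunit.

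In the large subunit the lowest member other than a paralog was RPL32, at 5.63 in the control and 4.77 in the MYCN siRNA array (−0.86, 1.82-fold lower). The second value lay little above the median of its array (4.55), which makes this fold uncertain. RPL6 went from 6.57 to 5.96 (−0.61, 1.52-fold lower), just past 1.5-fold, and RPL28 from 6.83 to 6.25 (−0.58, 1.499-fold lower), just short of it. RPL34 followed, at 6.93 and 6.38 (−0.55). RPL9, a protein near the base of the stalk, was at 8.51 and 7.99 (−0.52). RPL10A, the protein of the L1 stalk that helps release spent tRNA, was at 9.05 and 8.54 (−0.51). These 6 genes lay furthest below the group median, and of them only RPL32 and RPL6 differed from it by more than 0.31.

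Nearest to 0 among the large subunit genes that are not paralogs was RPL30, at 6.91 and 6.81 (−0.10). RPL27 was at 10.3 and 10.2 (−0.11), RPL18 at 7.41 and 7.27 (−0.13), and RPL19, over its 2 probe sets, at 9.95 and 9.81 (−0.14). All 4 were lower, each by less than the spread between probe sets.

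Functional sites of the large subunit were sampled in part. At the nascent chain exit, 6 of 9 listed proteins had a row and all 6 were lower, in a narrow band with a median of −0.27. RPL35 was at 8.05 and 7.70 (−0.35), RPL17, which lines the tunnel, at 8.44 and 8.16 (−0.28), and RPL22 at 6.14 and 5.95 (−0.19). RPL11, the partner of RPL5 and of 5S ribosomal RNA, was at 8.27 in the control and 7.94 in the MYCN siRNA array (−0.34). RPL12, at the base of the stalk that recruits elongation factors, was at 11.4 and 11.2 (−0.25). RPL8, next to the peptidyl transferase centre, was at 9.76 and 9.49 (−0.27). RPL14 at −0.46, RPL29 at −0.41, RPL36 at −0.38 and RPL37A at −0.32 lay between the lowest and the highest genes named above. So did RPL38, which tunes the translation of Hox messengers in mice, at −0.23, and RPL24, which reaches over to the small subunit, at −0.23. None of these genes departed from the group median by more than 0.31.

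In the small subunit RPS14 stood furthest down. This platform protein, whose loss of 1 copy underlies the anaemia of the 5q− syndrome, was at 8.08 in the control and 7.10 in the MYCN siRNA array (−0.98, 1.97-fold lower). The next, RPS16, a head protein whose tail reaches the P site, was at 7.95 and 7.39 (−0.56), so RPS14 lay 0.42 below its nearest small subunit neighbour. Each has 1 probe set, and this gap is below 0.44, the SD of the gap between 2 probe sets of the same gene. Against the group median of −0.29, RPS14 lay lower by more than 0.31, the SD of a probe set difference, as RPL32 and RPL6 did. RPS24 was at 7.15 and 6.62 (−0.53). RPS6, the protein that S6 kinases phosphorylate, was at 7.69 and 7.18 (−0.51). RPS29 was at 7.24 and 6.82 (−0.42), and RPS9 at 6.41 and 6.02 (−0.38).

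At the other end RPS15A was at 7.25 and 7.18 (−0.07), RPS28, at the messenger exit, at 12.2 and 12.05 (−0.13), and RPS27, a zinc finger protein, at 11.3 and 11.1 (−0.13). RPS7, which takes part in early assembly, was at 5.60 and 5.43 (−0.17). The 7 head proteins with a row, of 14 listed, had a median of −0.29 and the 3 platform proteins, of 5 listed, −0.31, with RPS14 and RPS27 as the extremes of the latter. RPS3, at the messenger entry, was at 8.01 and 7.72 (−0.29), and RPS23, at the decoding centre, at 9.39 and 9.11 (−0.29), both at the group median. RPS26, at the messenger exit, was at 7.39 and 7.08 (−0.31), RPS15 at 11.5 and 11.2 (−0.27) and RPS21 at 8.23 and 8.02 (−0.21).

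The genes mutated in Diamond-Blackfan anaemia, an inherited failure of red cell production, lay within the common band. Of 19 listed, 14 had a row and all 14 were lower, against 48.0% of all measured genes, with a median of −0.25. None was at 1.5-fold, which for 14 genes is near the 5.79% of all measured genes. RPS24 (−0.53) and RPS29 (−0.42) were the lowest and RPL27 (−0.11) and RPS15A (−0.07) the highest. RPS19, the gene most often mutated in that disease, was at 11.4 and 11.1 (−0.26), and RPL35A was at 6.65 and 6.25 (−0.40).

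The measured paralogs spread more widely than the other members, with RPL22L1 at the lower end and RPL39L and RPS27L at the upper. These 6 ran from −1.08 to 0.33 with an SD of 0.51, against 0.19 for the other 43 members. An SD of 6 genes depends strongly on such ends. RPS27L passed the filter only through the array in which it is higher, so its value lends no weight to the wider spread. Without it the paralogs ran from −1.08 to 0.26, and their SD without it was not computed. RPL22L1, a close relative of RPL22 that can replace it in the ribosome, was the lowest of all 50, at 6.85 in the control and 5.76 in the MYCN siRNA array (−1.08, 2.12-fold lower). RPL22 itself was at −0.19, so RPL22L1 lay 0.89 below its partner. RPL39L, a copy of the tunnel protein RPL39 that is abundant in testis, was higher, at 6.03 and 6.29 (0.26). RPL39 was at 7.82 and 7.51 over 2 probe sets (−0.30), which put RPL39L 0.56 above it. RPS27L, a relative of RPS27 known as a p53-inducible gene, was also higher, at 4.24 and 4.56 (0.33), 0.45 above RPS27. Its control value lay under the median of its array and its MYCN siRNA value barely above it, so it is not shown to be above background. RPL26L1, nearly identical to RPL26, was at 6.14 and 6.12 (−0.02, and 0.03 after median centring), 0.23 above RPL26 at −0.25.

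RPL7L1 and RPL3L lay within the range of the other members. Their partners had no row, and RPL7L1 was at 7.50 and 7.22 (−0.28) and the muscle-expressed RPL3L at 5.52 and 5.31 (−0.21). The gap between the differences of 2 probe sets has an SD of 0.44 in genes with several probe sets. The gap of RPL22L1 to RPL22 was the widest of the 4 pairs and larger than this SD, that of RPL39L exceeded it by little, and that of RPL26L1 was below it. RPS27L passed the filter only through the array in which it is higher, and its gap is not read against this SD. Copies this similar can share probe signal, and this was not tested. RPL36AL, which the rule leaves out, was at 6.46 and 6.44 (−0.02), and the readthrough transcript RPL36A-HNRNPH2 was at 6.33 and 5.64 (−0.68).

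**Figure D2:**
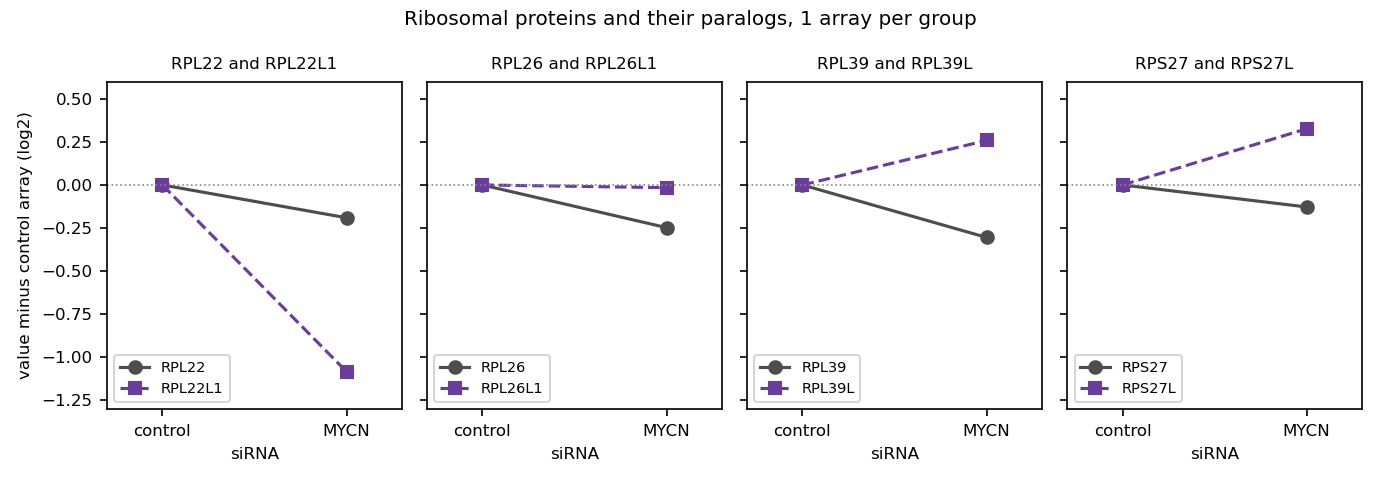
Value in each array minus the control array value (log2, y axis) for 4 ribosomal protein genes (grey circles) and their paralogs (purple squares), 1 array per group and no error bars. RPL22L1 ends at −1.08 and RPL22 at −0.19, while RPL39L and RPS27L end above 0 and their partners below.

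Where a gene had several probe sets, all of them were lower. RPS18 gave −0.34 and −0.25, RPL39 gave −0.39 and −0.21, and RPL19 gave −0.18 and −0.11. RPL41, which encodes a very short basic peptide, had 5 probe sets with differences from −0.72 to −0.08 and a mean of −0.27. Its brightest probe set, at 12.4 in the control and 12.3 in the MYCN siRNA array, gave the smallest difference, and its dimmest, at 7.08 and 6.36, the largest. The probe sets of this 1 gene thus spanned 0.64.

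Differences were smaller at bright probe sets across the family too. Among the 43 members that are not paralogs, the 14 dimmest had a median of −0.41, the middle 15 a median of −0.30, and the 14 brightest a median of −0.27. Across these genes, which are no independent replicates and share both arrays, the mean level and the difference gave Pearson's r = 0.39 and Spearman's rho = 0.37, and over all measured genes r was 0.01. The 9 probe sets at a mean level of 10 or more (RPL12, RPL19, RPL27, RPL36, RPL41, RPS15, RPS19, RPS27 and RPS28) were lower throughout, from −0.38 to −0.08. Of all 524 genes at that level, 257 were lower and the median was 0.00. Whether bright probe sets are compressed near the top of the scale was not tested, and levels of different probe sets were not ranked as abundances. All measured genes in the level range of the dimmest, the middle and the brightest members had medians of 0.01, 0.06 and 0.02.

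**Figure D3:**
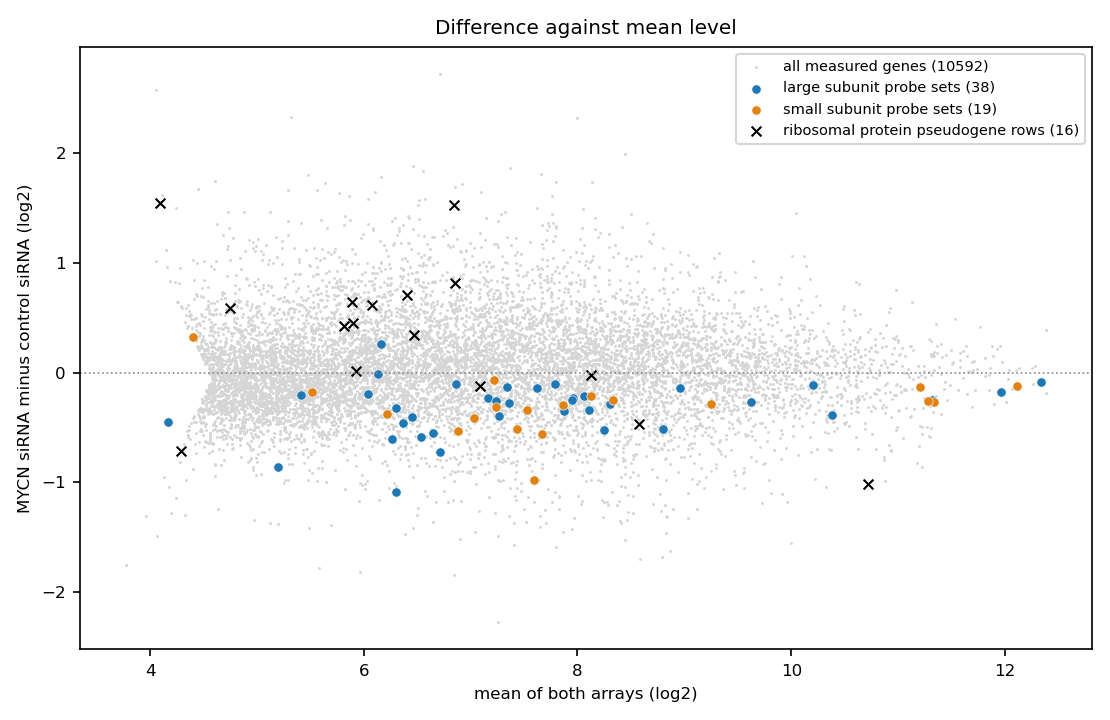
Difference between the arrays (log2, y axis) against the mean of both arrays (log2, x axis) for all 10592 measured genes (light grey), large subunit probe sets (blue), small subunit probe sets (orange) and 16 measured pseudogene rows (crosses). Apart from RPL39L and RPS27L, ribosomal protein probe sets form a band under 0 that narrows to −0.38 to −0.08 at levels of 10 or more, while the crosses scatter to both sides.

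Rows named for ribosomal protein pseudogenes went both ways. There were 31 such rows with 29 distinct pairs of values, of which 16 were measured. Of these 11 were higher and 5 lower, with a median of 0.44 and a range from −1.02 to 1.54. Of all 10592 measured genes, 5388 were higher. RPL13AP20 was at 11.2 and 10.2 (−1.02), and RPL21P28 at 8.81 and 8.34 (−0.47). RPL13P5 was at 6.08 and 7.61 (1.53). RPSAP9, at 3.33 and 4.87, and RPL23AP7 passed the filter only through the array in which they are higher, and RPL19P12 only through that in which it is higher, the control. Over the 13 rows at or above the median in both arrays, a filter chosen after the data were seen, 9 were higher and 4 lower, with a median of 0.43 and a range from −1.02 to 1.53. The 8 measured rows of RPL23A pseudogenes, which can share sequence, gave 7 of the 11 higher rows, with a median of 0.52. The excess of higher rows thus lies in this 1 family. Of its rows, the 7 that passed in both arrays were higher in 6 cases, with a median of 0.46. RPL23A, RPL13A and RPL21 had no named row of their own, so parent and pseudogene were not compared for them.

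The letters at the start of the members' genes show the 5′ TOP rule, and they are given for some of the lowest members, with and without such a start, and for the paralog pairs. Promoters of RefSeq (GRCh38.p14, 250 bases before to 50 after each annotated start) were found for 45 of the 50 members. A start was counted as 5′ TOP where it is a C followed by at least 4 bases that are all C or T, on the gene's own strand. Each line gives 15 bases before and 15 from the start on, 5′ to 3′, with the pyrimidine run in capitals.
RPS14: ccgccccctcccactCTCTCTTTCCggtgt
RPL32: ggtgaggtgacccttgacctcctgggatcg
RPL6: ggggagacggcgcgtgcactgtgttcctgg
RPS16: gtggcccctagctttCCTTTTCCggttgcg
RPS24: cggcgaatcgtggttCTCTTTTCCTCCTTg
RPL34: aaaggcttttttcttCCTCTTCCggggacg
RPL28: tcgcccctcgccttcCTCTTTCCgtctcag
RPL22: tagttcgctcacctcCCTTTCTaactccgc
RPL22L1: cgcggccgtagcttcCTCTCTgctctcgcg
RPS27: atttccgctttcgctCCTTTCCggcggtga
RPS27L: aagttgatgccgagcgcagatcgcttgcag
RPL26: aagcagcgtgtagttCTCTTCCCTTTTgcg
RPL26L1: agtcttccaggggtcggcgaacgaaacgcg

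The RPS14 window is chr5:150449725-150449754 on the minus strand. RPL32 is shown at chr3:12840436-12840465 and RPL6 at chr12:112409271-112409300, both minus and each at 1 of several annotated starts, and those of RPL22 and RPL22L1 are chr1:6199581-6199610 and chr3:170870181-170870210, also minus. RPS27 is shown at chr1:153990747-153990776 (plus), RPS27L at chr15:63157463-63157492 (minus), RPL26 at chr17:8383179-8383208 (minus) and RPL26L1 at chr5:172958714-172958743 (plus, the first of its 2 starts). Each spans the 5′ flank and the first bases of exon 1.

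Of the 45 members with a promoter, 29 (64.4%) had a 5′ TOP start at 1 or more annotated starts, against 5.14% of all 27305 genes of the table and 6.69% of the 8152 measured genes with a promoter. Among the lowest members, RPL32, RPL6, RPL9 and RPL10A had none at any annotated start of the table. RPL22L1 and RPL22 both had one, with runs of 6 and 7 pyrimidines, and their differences were −1.08 and −0.19. RPS27 and RPL26 had one, and RPS27L and RPL26L1 did not. All 29 measured members with a 5′ TOP start were lower, with a median of −0.32 and a range from −1.08 to −0.13. The 15 measured members without one had a median of −0.28 and ran from −0.86 to 0.33, with 14 lower. The upper end is RPS27L, which passed the filter only through the array in which it is higher, and the next was RPL26L1 at −0.02. These 15 include the paralogs RPS27L, RPL26L1 and RPL7L1, and the 29 include RPL22L1. The 2 sets overlapped over most of their range. A missing match says only that these letters are not at the annotated start.

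The E-box CACGTG, the sequence MYC and MYCN bind with MAX and which reads the same on both strands, was searched in the same windows. It was found in 4 of 45 members (8.89%), against 8.77% of all genes of the table and 12.3% of the measured genes with a promoter. The 3 that hold it before the start are shown with the E-box in capitals.
RPL7L1: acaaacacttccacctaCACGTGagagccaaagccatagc
RPL19: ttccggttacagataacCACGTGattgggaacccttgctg
RPS28: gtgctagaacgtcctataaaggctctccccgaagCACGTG
They lie at chr6:42879483-42879522, chr17:39200035-39200074 and chr19:8321456-8321495, all on the plus strand, and the E-box begins 116, 231 and 6 bases before the start. The fourth is RPS19, after its second start. These 4 genes had a median of −0.20 and the 40 measured members without the motif −0.32. Of 21 ribosome assembly factors with a promoter, 10 (47.6%) held the motif. So did 8 of 65 mitochondrial ribosomal proteins (12.3%) and 1 of 8 other messengers with a known 5′ TOP start (12.5%). These lists were chosen with earlier results of these data known, and a link between the motif and the differences was not tested. A match describes letters and shows no binding.

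**Figure D4:**
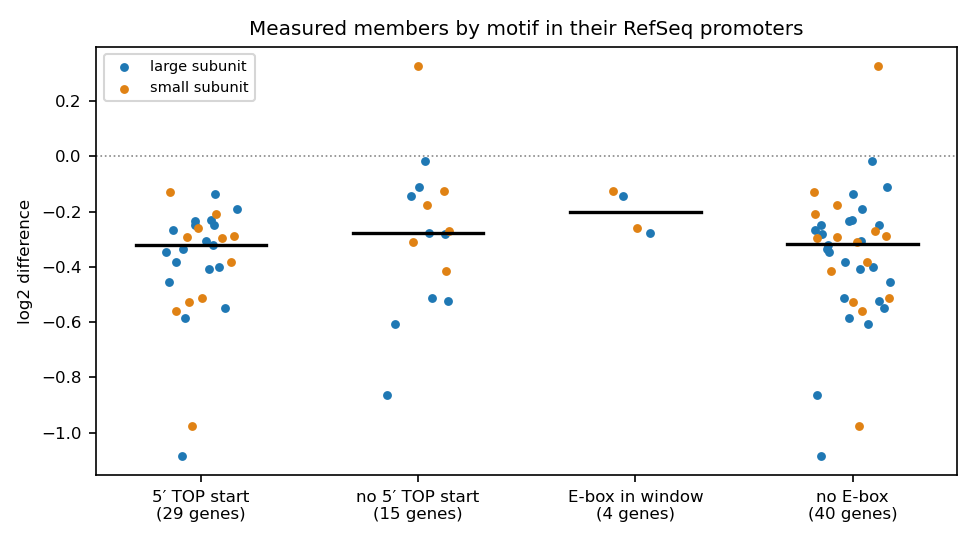
Log2 difference (y axis) of the measured members that have a RefSeq promoter, split by a 5′ TOP start and by an E-box in the window, with large subunit genes in blue, small subunit genes in orange and black bars at the medians. The members with and without a 5′ TOP start overlap, with medians of −0.32 and −0.28.

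Other genes of the same pathway were mostly lower, to different degrees. The counts below stand against 48.0% of all measured genes lower and 5.79% at least 1.5-fold lower. FAU, which encodes a small subunit protein fused to a ubiquitin-like domain, was at 5.92 and 5.73 (−0.19). Of 19 listed messengers of other proteins with a known 5′ TOP start, 10 were measured and 9 were lower, with a median of −0.22 (−0.13 over the 8 that a filter at the 70th percentile keeps). EIF4B, a helicase cofactor in initiation, was at −0.66 and HNRNPA1 at −0.45, while BTF3 was at −0.02 and VIM, vimentin, at 0.57. EIF4B was the one member of this list past 1.5-fold lower, and VIM the one that was higher.

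Proteins that escort single ribosomal proteins were lower in 6 of 7 measured cases, 2 of them past 1.5-fold, with a median of −0.23. GRWD1, the chaperone of RPL3, went from 8.88 to 8.02 (−0.86) and LTV1, which accompanies small subunit head proteins, from 9.07 to 8.38 (−0.69). RPS19BP1 was at −0.13 and PDCD2L at 0.17. The 5 importins that carry ribosomal proteins had a median of −0.27, none past 1.5-fold, with IPO5 at −0.48, IPO9 at −0.34, KPNB1 at −0.01 and TNPO1 at 0.16. With the filter at the 70th percentile, which keeps 4 of them, the median was −0.14.

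Of the regulators of 5′ TOP translation 7 of 12 were measured, 5 lower and 2 higher, with a median of −0.19. EIF4EBP1, a repressor of cap-dependent initiation, was at 10.1 and 9.32 (−0.83), the only one past 1.5-fold, and RHEB, the GTPase that activates mTOR, at 6.43 and 5.91 (−0.51). MTOR was at 0.16 and TSC2, which restrains RHEB, at 0.34. Of the kinases named for RPS6, RPS6KL1 was the one with a row, at −0.21.

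Against the other ribosome-related groups, the members stood between. The 28 measured assembly factors had a median of −0.68 and 17 of them were at least 1.5-fold lower, with NOLC1 at −1.55, NAT10 at −1.42, NOC2L at −0.22 and DDX56 at −0.22. All 28 were lower. Of all measured genes 48.0% were lower and 5.79% at least 1.5-fold lower. The lists were chosen with earlier results of these data known. The 73 measured mitochondrial ribosomal proteins had a median of −0.12, 49 lower and 24 higher, from MRPL42 at −0.69 and MRPS2 at −0.59 to MRPL16 at 0.22 and MRPS31 at 0.22. These differences between groups were not tested, since the groups are genes of the same 2 arrays.

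**Figure D5:**
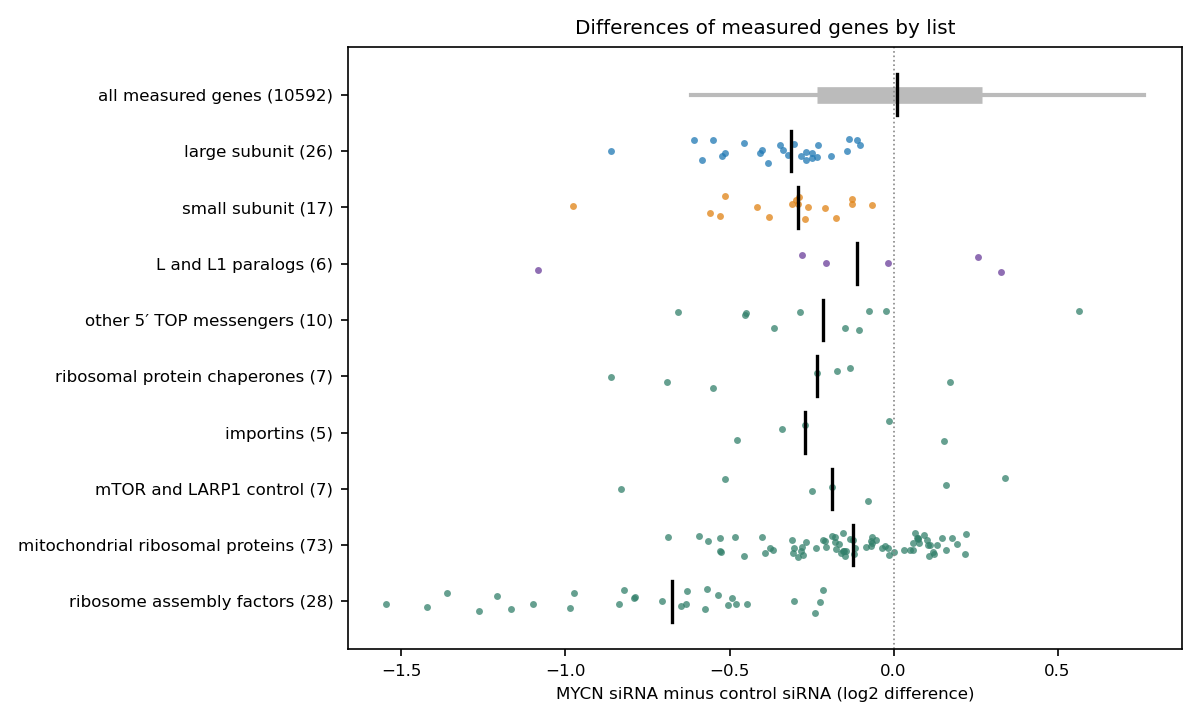
Log2 difference (x axis) of measured genes by list, 1 point per gene, number of genes in brackets and black bars at the medians. For all measured genes the thick bar spans the 25th to 75th and the thin line the 5th to 95th percentile. The points of the 26 large and 17 small subunit genes that are not paralogs lie below 0, with medians between those of the assembly factors (median −0.68) and the mitochondrial ribosomal proteins (median −0.12).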

How the data were processed

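RNA of 2 BE(2)C cultures was read on 1-colour Affymetrix Human Gene 2.0 ST arrays, per the labels' protocols. Values are log2 per probe set, deposited by the authors after RMA, per the submitters' processing notes. Not given in the sources used here were its settings and software, and whether both arrays went through it in 1 run. The control array's title speaks of a reanalysis, which no source explains. RMA usually equalises the arrays' distributions, so a difference in total messenger RNA per cell cannot be seen.

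Genes were named from the platform annotation and identifiers were updated through RefSeq (GRCh38.p14); 30420 of 46255 rows are unnamed here. Probe sets of a gene were averaged on the log2 scale with Python 3.11.15 and pandas 2.3.3. No test was run. Alternatives were median centring, quantile normalization, loess (statsmodels 0.14.6, span 0.3), the brightest probe set, an offset of 16 on linear values, no filter and a filter at the 70th percentile.

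Every member may be named. Described in full were, per subunit, the 6 lowest and 4 highest members, paralogs, members with several probe sets and those of the stalk and 5S particle, and of other lists the 2 lowest and 2 highest. Members and lists were chosen with earlier results of these data known. Of all rows, 0 were named SNORA or SNORD, so small nucleolar RNAs inside these genes could not be examined. Of the 21 rows named SCARNA, 0 lay inside them. The script was checked on simulated data.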

Additional observations from a re-analysis of the deposited data

How the results depend on the processing

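No paired analysis was possible because each group has 1 array and the labels give no replicate numbers, and no replicate could be left out. Under the 7 alternatives, 47 of the 50 members were lower each time, RPL39L and RPS27L were higher each time, and RPL26L1 was higher only after median centring (0.03). Most of this was fixed in advance. Changing the filter leaves the difference of a gene as it is, and the offset cannot change the sign of a probe set. The brightest probe set alters only genes with several, whose probe sets were all lower. Only median centring, quantile normalization and loess could change a member's sign. The median of the measured members ran from −0.33 (quantile normalization) to −0.24 (median centring, which moved the median of all genes from 0.01 to 0.06). The count of members at least 1.5-fold lower was 4 as deposited and 8 after quantile normalization. The count at least 2-fold lower was 1 as deposited, 2 after quantile normalization, 2 after loess and 0 with the offset of 16. The mitochondrial ribosomal protein median was −0.075 after median centring. With the filter at the 70th percentile the importin median was −0.14 and that of the other 5′ TOP messengers −0.13. With no filter the haematopoietic marker median was 0.00 and the fibroblast one −0.21, and with the filter at the 70th percentile the haematopoietic one was 1.74, from 1 gene. RPS14 ran from −1.02 to −0.90, RPL22L1 from −1.11 to −0.90 and RPL32, which is dim, from −0.86 to −0.60. A limit on all of these is that 1 array per group gives no spread between cultures.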
